A study of Mus musculus with 9 samples.

Results

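A set of 9 genes that encode transcription factors of the neural crest and of epithelial-mesenchymal transition (EMT) was examined in the accessible chromatin of the early mouse heart field, namely Tfap2a, Tfap2b, Tfap2c, Snai1, Snai2, Zeb1, Zeb2, Ets1 and Sox10. A region was counted for one of these genes when the list of accessible regions gave that gene's symbol to it. By this rule 6 of the 9 genes had a region, with 12 of the 17164 distinct regions in the list (13 of 17432 rows, because 1 region was listed more than once). The list named 11541 gene symbols in all. Tfap2b had 2 regions, Tfap2c 1, Snai1 1, Snai2 1, Zeb2 3 and Ets1 4, whereas Tfap2a, Zeb1 and Sox10 had no assigned region.

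The question behind the series was how open chromatin in the heart field depends on Isl1, a LIM-homeodomain factor, and on Brg1, the ATPase of the SWI/SNF remodeling complex. Open DNA was tagged with the Tn5 transposase and sequenced (ATAC-Seq) from dissected hearts and pharyngeal mesoderm of the mouse at embryonic day 8.75. There were 3 libraries each from wild-type embryos, Isl1 knockout embryos (Isl1-/-) and Isl1Cre+/-/ Brg1fl/fl embryos, in which Cre expressed from Isl1 removes Brg1 in Isl1-expressing cells and their descendants. The values used here were 1 list of regions common to the 3 wild-type libraries, in mm9 coordinates, each with 1 gene and its signed distance from a transcription start site (TSS) of that gene. The mutant groups were not analyzed here. The list has no height and no value per library, so depth is unknown, no value below has a replicate error, and no difference between genotypes was tested. The tissue was a bulk dissection, so regions from few cells and weakly open regions in many cells cannot be told apart.

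The neural crest is a migratory cell population that arises at the border of the neural plate and, in the pharyngeal arches and outflow tract, lies next to the mesodermal heart progenitors. AP-2 factors (Tfap2a, Tfap2b, Tfap2c) act early at the neural plate border, Ets1 and Sox10 are expressed in migrating crest cells, and Ets1 is also expressed in endothelium. Snai1, Snai2, Zeb1 and Zeb2 are zinc-finger repressors of epithelial genes such as Cdh1, and are active wherever epithelial cells become mesenchymal, including in mesoderm and endocardial cushions. AP-2 proteins bind GC-rich palindromes, Snail and Zeb proteins bind E-boxes, Ets1 binds a core with GGAA, and Sox10 binds a core shared by the SOX family.

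Of the 12 regions, 8 held at least 1 of 6 short motifs in their central 300 bp. The share of all regions with at least 1 of the 6 is not given, so this count has no background. Taken singly, the motifs were present in 3.96 to 23.3% of all regions. The sequences of 5 regions are given here because motif counts turn on them. All are of the plus strand of mm9 (NCBIM37), read 5′ to 3′, and capitals mark a motif match on either strand. Bases within exons were left out, which shortens the sequences next to a start. The motifs are the TFAP2 palindrome GCCNNNGGC, which reads alike on both strands, and the E-box CAGGTG of Snail and Zeb factors. The SOX core searched was AACAAT. For Isl1 the letters were CTAATGG, or as a second form CTAATTG, whose last 4 bases can belong to a SOX core on the other strand.
Snai1 promoter, chr2:167363445-167363694: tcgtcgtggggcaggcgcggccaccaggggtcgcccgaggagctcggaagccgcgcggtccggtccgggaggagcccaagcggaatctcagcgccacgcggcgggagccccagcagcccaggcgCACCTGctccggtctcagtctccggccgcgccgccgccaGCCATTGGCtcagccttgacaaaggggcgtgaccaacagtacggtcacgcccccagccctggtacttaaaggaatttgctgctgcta
Tfap2b downstream region, chr1:19231471-19231770: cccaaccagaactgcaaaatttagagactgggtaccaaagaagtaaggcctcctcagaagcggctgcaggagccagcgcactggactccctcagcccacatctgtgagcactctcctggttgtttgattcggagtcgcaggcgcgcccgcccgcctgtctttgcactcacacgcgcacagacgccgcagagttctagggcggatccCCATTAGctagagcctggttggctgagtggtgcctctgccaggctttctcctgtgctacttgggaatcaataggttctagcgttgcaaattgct
Ets1 intronic region, chr9:32493350-32493649: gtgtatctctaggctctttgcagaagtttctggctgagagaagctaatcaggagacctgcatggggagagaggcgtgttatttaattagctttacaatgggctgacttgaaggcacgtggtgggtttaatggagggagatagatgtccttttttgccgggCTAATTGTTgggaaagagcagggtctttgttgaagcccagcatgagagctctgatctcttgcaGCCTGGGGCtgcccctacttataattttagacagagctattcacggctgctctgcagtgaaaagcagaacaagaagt
Ets1 distal start region, chr9:32443554-32443805: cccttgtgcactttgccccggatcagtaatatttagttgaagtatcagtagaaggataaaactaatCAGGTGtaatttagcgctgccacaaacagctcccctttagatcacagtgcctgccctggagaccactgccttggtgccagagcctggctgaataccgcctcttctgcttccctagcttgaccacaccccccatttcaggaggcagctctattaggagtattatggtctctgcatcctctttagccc
Zeb2 distal region, chr2:45040128-45040427: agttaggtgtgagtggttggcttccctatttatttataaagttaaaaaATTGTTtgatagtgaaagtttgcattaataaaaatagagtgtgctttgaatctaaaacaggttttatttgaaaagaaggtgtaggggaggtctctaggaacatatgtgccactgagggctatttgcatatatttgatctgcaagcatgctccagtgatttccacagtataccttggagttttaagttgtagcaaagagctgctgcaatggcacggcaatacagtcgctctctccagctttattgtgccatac

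The Snai1 promoter sequence ends at the base before the Snai1 TSS and holds 1 E-box and 1 TFAP2 palindrome. The Tfap2b downstream region holds 1 Isl1 motif, read on the minus strand. In the Ets1 intronic region an Isl1 motif and a SOX core overlap in the 9 bases CTAATTGTT, and a TFAP2 palindrome follows.

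The 9 genes differed in whether a region was assigned and in how far it lay from the start. A region was assigned to 6 of the 9, against 49.3% of 21031 coding genes. A region within 1 kb of the assigned TSS was found for 3 of the 9 (Snai1, Snai2 and Ets1), against 40.6% of coding genes, which is near this background. The other 3 genes with a region (Tfap2b, Tfap2c and Zeb2) had none within 1 kb of the assigned TSS, a pattern that 8.66% of coding genes showed. With 9 genes and 1 list, none of these counts was tested. Of the 12 regions, 3 (25%, Wilson 95% interval 8.89 to 53.2%) lay within 1 kb of the TSS, 1 at 1 to 10 kb, and 8 (66.7%, 39.1 to 86.2%) beyond 10 kb. In the whole list the shares were 52.9%, 7.81% and 39.3%. All these shares are for the assigned TSS. Measured from any annotated start of the same gene, 5 of the 12 regions lay within 1 kb and 7 beyond 10 kb. The Zeb2 region listed at -3421 bp and the Ets1 region listed at -59923 bp then count as promoter regions. No share of all regions by this measure is given, so the whole-list shares above are no background for these counts. Among the 5 regions at least as wide as the list's median of 1123 bp the share beyond 10 kb was 40%. That share has no like background here, because 39.3% is for regions of all widths. In the whole list the regions beyond 10 kb were narrower, with an upper quartile of 1122 bp. These intervals cover counting error only, and regions of 1 gene are not independent of each other. The plot of distances by gene shows the regions of Snai1 and Snai2 at the start and those of the AP-2 genes far from it.

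**Figure D1:**
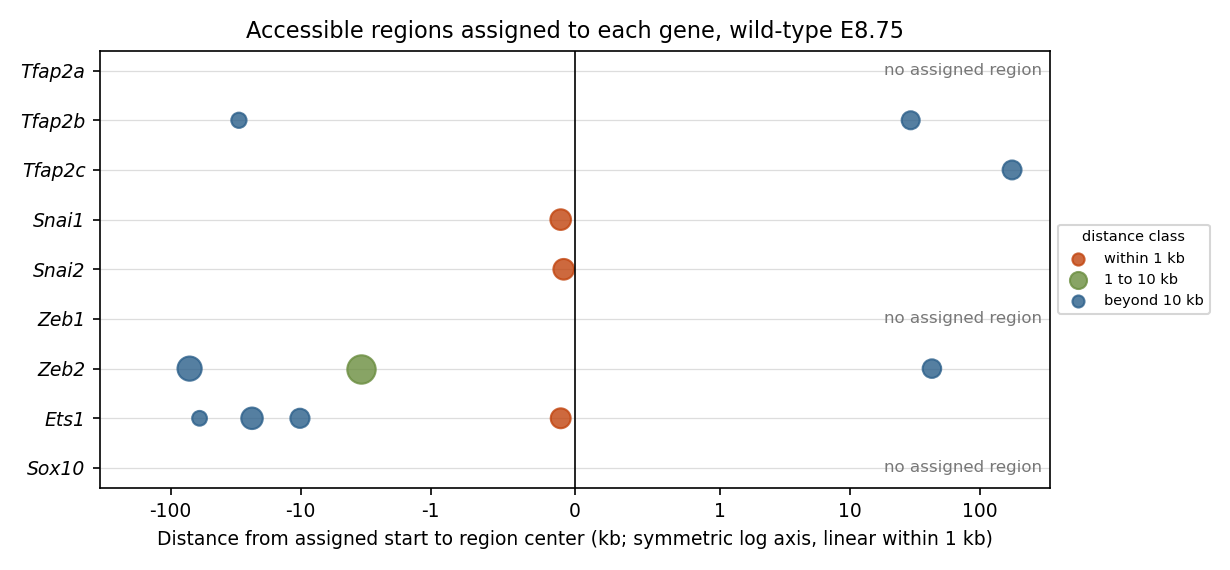
Distance in kb from the assigned TSS to the center of each of the 12 regions, on a symmetric log axis that is linear within 1 kb, with negative values upstream; 1 row per gene, point area proportional to region width, color by distance class. Snai1, Snai2 and Ets1 each have 1 region within 1 kb, Tfap2b, Tfap2c and Zeb2 have none there, and Tfap2a, Zeb1 and Sox10 have no assigned region.

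Both Snail genes had a single region, and it covered the start. Snai1, the Snail factor first used in gastrulating mesoderm, lies at chr2:167363695-167368314 on the plus strand, and its region at chr2:167363009-167364182 was 1174 bp wide with its center at -100 bp from the TSS. Snai2, the Snail factor classically studied in crest cells, lies at chr16:14705945-14709488 on the plus strand, and its region at chr16:14705284-14706463 was 1180 bp wide with its center at -79 bp. The widths differed by 6 bp. Both lay between the lower quartile (1084 bp) and the median (1294 bp) of the 9083 regions within 1 kb of a start, at percentiles 36.4 and 37.1. Base composition separated the pair, since the Snai1 region had 64.5% GC and 7.67 CpG per 100 bp (percentiles 86.6 and 77.3 of promoter regions), whereas the Snai2 region had 53.4% GC and 4.66 CpG per 100 bp (percentiles 20.2 and 27.5).

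Neither Snail gene had a further assigned region. Within 100 kb of the start Snai1 had 2 regions of any symbol and Snai2 had 1, each count including the promoter region. These counts lay at percentiles 53 and 33 of coding genes, whose median was 2. The region next to that of Snai1 was 92697 bp away and assigned to Ube2v1, and on the other side 114973 bp away and assigned to Slc9a8. The Snai2 region was more isolated, with neighbors at 199742 bp (Efcab1) and 343204 bp (Abcc1). Each of the 2 promoter regions held an E-box, the motif that Snail proteins themselves bind, in its central 300 bp. Of all promoter regions 17.7% held an E-box there, and the region at the assigned Ets1 TSS held none. In the Snai1 region the E-box lay 24 bp before the center and upstream of the TSS. In the Snai2 region it lay 126 bp after the center and within the transcribed part, for which no sequence is shown.

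Zeb2, a Smad-binding repressor needed for crest formation, had 3 regions spanning 118708 bp of chromosome 2, and the widest of all 12 regions was one of them. The gene lies at chr2:44839154-44972915 on the minus strand. The region at chr2:44971105-44973336 was 2232 bp wide, at percentile 95.1 of regions 1 to 10 kb from a start. Its listed distance was -3421 bp, measured from a start inside the gene, but it held the start of the GENCODE transcript Zeb2-001 at position 44972915, and its center was 695 bp downstream of that start. Measured from that start it would count as a promoter region, and its width was at percentile 94 of promoter regions. The region at chr2:45039470-45041086, in intergenic sequence at -71479 bp, was 1617 bp wide, at percentile 94.8 of the 6740 regions beyond 10 kb. It was the region listed more than once. The third region, at chr2:44922379-44923327 in an intron at 42944 bp, was 949 bp wide, close to the median of 937 bp for its class. Thus 2 of the 3 Zeb2 regions were among the widest of their class, and the third was not.

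Zeb1, the other Zeb gene, had no assigned region, although its start was the most CpG-rich of the 9. Zeb1 lies at chr18:5591858-5775465 on the plus strand with 8 annotated start positions. No region of any symbol lay within 100 kb of one of them, and the nearest was at 163734 bp (1323 bp wide, assigned to Zfp438). Within 500 bp of a start Zeb1 had up to 12.1 CpG per 100 bp, at percentile 96.2 of coding genes, in the highest decile, where 76.6% of genes were open within 1 kb of a start. Zeb1 was thus in the minority of its CpG class. Because a region had to be found in each of the 3 libraries to be listed, no entry does not show closed chromatin.

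Ets1, an ETS-domain activator of crest and endothelium, had the most regions of the 9 genes. It lies at chr9:32443806-32565405 on the plus strand with 2 annotated start positions, and its 4 regions spanned 60670 bp. The region at the assigned TSS, chr9:32502981-32504073, was 1093 bp wide (percentile 26.3 of promoter regions) with its center at -100 bp and had 62.9% GC and 8.06 CpG per 100 bp. The region at -59923 bp, chr9:32443404-32444004, held the start of the longer Ets1 transcript at position 32443806, with its center -102 bp from that start. It was the narrowest of the 12 regions with 601 bp, at percentile 0.297 of promoter regions and 5.22 of regions beyond 10 kb. The 2 Ets1 starts thus lay under regions of unlike width and composition, the upstream one with 51.4% GC and 1.67 CpG per 100 bp.

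The remaining Ets1 regions lay between these starts, in introns of the longer transcript. The region at -23661 bp, chr9:32479328-32480604, was 1277 bp wide (percentile 86.2 of regions beyond 10 kb) with 56.8% GC, at percentile 93.3. The region at -10127 bp, chr9:32492994-32494006, just past the 10 kb limit of the class, was 1013 bp wide (percentile 61.9) with 47.3% GC and 0.692 CpG per 100 bp. Only 5.28% of genes with a region had 4 or more. The genes most like Ets1 by number of regions, number within 1 kb and width of the widest region (within 10%) were Lgalsl, Cox7c, Stpg2, Adgrg6 and Notch2, out of 31 that qualified, with widest regions of 1267, 1270, 1271, 1281 and 1287 bp. A total of 6 regions of any symbol lay within 100 kb of an Ets1 start, at percentile 94.6 of coding genes (median 2, quartiles 1 and 4). Those additional to the 4 were assigned to Fli1, the neighboring ETS gene, and lay at -44283 and -28907 bp from the nearest Ets1 start (654 and 924 bp wide). Because the 2 Ets1 starts lie far apart, the sequence within 100 kb of a start was longer than for a gene with 1 start. The percentile was not adjusted for this.

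**Figure D2:**
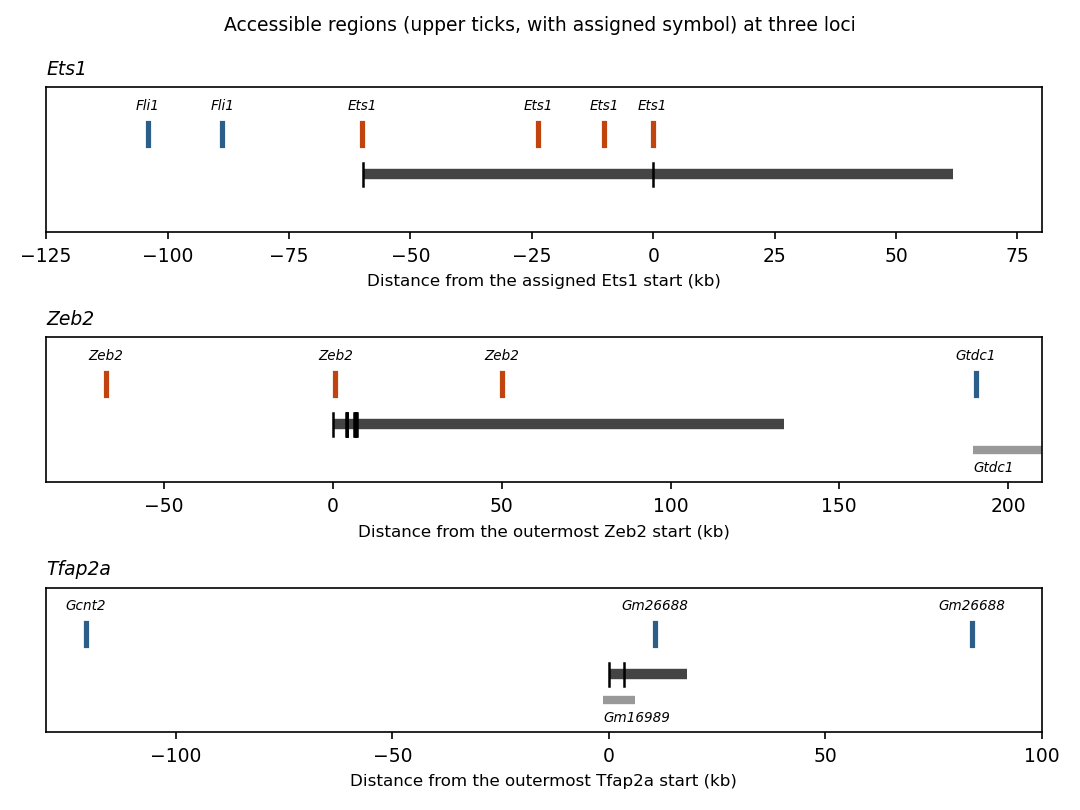
Accessible regions (upper ticks, labeled with the assigned symbol, orange where assigned to the gene shown and blue otherwise) along Ets1, Zeb2 and Tfap2a, with distance in kb in the direction of transcription, from the assigned start for Ets1 and from the outermost start for Zeb2 and Tfap2a; dark bars are the gene, black ticks its annotated starts, gray bars other genes. Regions sit on both Ets1 starts and on the outermost Zeb2 start, and a region assigned to Gm26688 lies inside Tfap2a.

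Among the AP-2 genes, no region lay within 1 kb of any annotated start. Tfap2b, known for its role in closure of the ductus arteriosus and in crest derivatives, lies at chr1:19198995-19228815 on the plus strand. It was flanked by a region at chr1:19168833-19169473, at -29842 bp, and one at chr1:19231173-19232070, at 29486 bp and beyond the end of the gene. A start of the pseudogene Gm10075 was nearer to the upstream region (25106 bp), so its link to Tfap2b rests on the assignment. The upstream region was narrow and AT-rich, with 641 bp (percentile 8.29 of regions beyond 10 kb), 38.1% GC (percentile 3.41) and 0.625 CpG per 100 bp. The downstream region was 898 bp wide (percentile 44.1) with 51.2% GC and 3.23 CpG per 100 bp (percentile 89.6). Of its 31-mers, 12.1% occurred elsewhere in the genome, the highest share of the 12 regions. The next region to the left of the upstream one was 73648 bp away and assigned to Tfap2d, another AP-2 gene.

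Tfap2c, an AP-2 gene of trophoblast, germ cells and early crest, lies at chr2:172375093-172384122 on the plus strand, and its only region was the farthest from a start of all 12. It lay at chr2:172553551-172554538, 177553 bp downstream of the assigned TSS, and was 988 bp wide (percentile 58.4). It was unusually rich in CpG for a distal region, with 7.4 per 100 bp and 58.4% GC, at percentiles 98.3 and 95.4 of regions beyond 10 kb. It stood alone, with the next regions at 133866 bp (assigned to Bmp7) and 287035 bp (assigned to Rtfdc1). No region of any symbol lay within 100 kb of a Tfap2c start, and the nearest was at 109167 bp and assigned to Rtfdc1. A GENCODE start of a microRNA gene, AL845460.1, was nearer to the Tfap2c region (135798 bp), so the link to Tfap2c rests on the assignment.

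Tfap2a, the AP-2 gene most closely tied to the neural plate border, had no assigned region, but a region lay inside it. The gene is at chr13:40811044-40829192 on the minus strand. The region at chr13:40817809-40819119 was 1311 bp wide with 58.1% GC and 5.95 CpG per 100 bp, and its center fell in a coding exon of Tfap2a, 7323 bp downstream of the nearest Tfap2a start. The list assigned it to Gm26688, a noncoding gene for which RefSeq gives the synonym Tfap2a-as1, at -4713 bp from a start at position 40823177. A further region of Gm26688, chr13:40744927-40745890, was 964 bp wide and lay 80379 bp from the nearest Tfap2a start. The region inside the gene is missed by a count that goes by the symbol Tfap2a. With regions assigned to the nearest start of a coding gene, only that region went to Tfap2a, and the further region did not. At the Tfap2a starts themselves, with up to 7.2 CpG per 100 bp, no region was listed.

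Sox10, the SoxE gene of migrating crest and its glial and pigment derivatives, had no assigned region either. It lies at chr15:78985343-78994920 on the minus strand. The nearest region of any symbol was 23294 bp from a Sox10 start, 802 bp wide and assigned to 1700088E04Rik, and it was the only one within 100 kb. Its SoxE relative Sox9 had 1 region, 1922 bp wide and centered 171 bp from the TSS, and Sox8 had none. The Sox10 starts had at most 2.9 CpG per 100 bp, the same decile of coding genes as Tfap2b with 2.6.

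The CpG frequency at the starts, a feature that the gene list did not use, set the 9 genes against coding genes of like composition. It was the highest count of CpG per 100 bp within 500 bp of any annotated start. Of the 20372 coding genes with an annotated start, 9610 (47.2%) had a region of any symbol within 1 kb of it, from 0.459% in the lowest decile by CpG frequency to 76.6% in the highest. Of the 9 genes, 7 fell in decile 6 or higher, where 68.6 to 76.6% of genes had an open start, and 4 of these 7 had one (Snai1, Snai2, Zeb2 and Ets1). Tfap2a, Tfap2c and Zeb1 were CpG-rich with no region at a start. Tfap2b and Sox10 fell in decile 4, where 34.6% of genes had an open start, and neither had one.

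**Figure D3:**
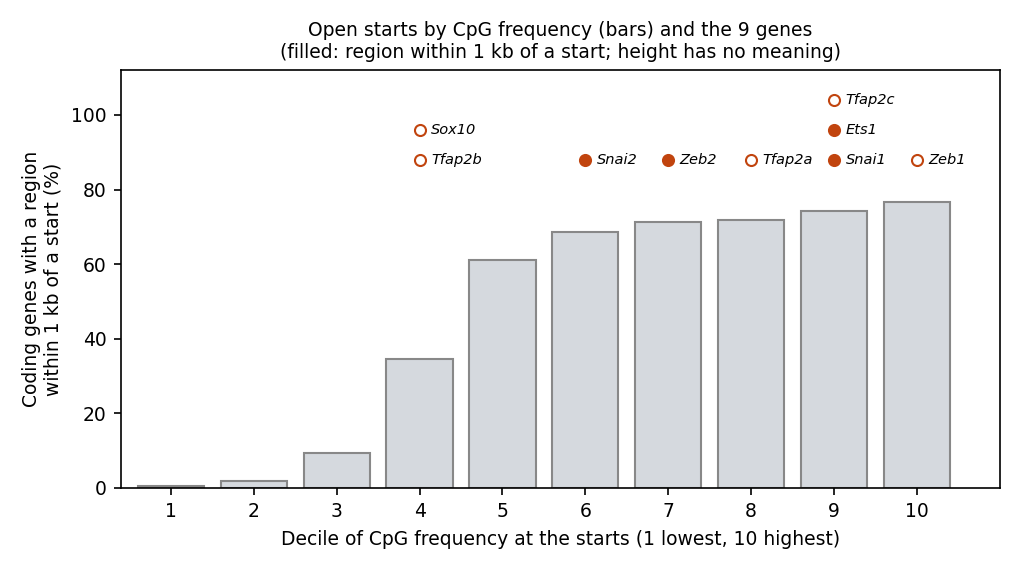
Bars give the percentage of coding genes with a region of any symbol within 1 kb of an annotated start, by decile of CpG frequency at the starts (1 lowest, 10 highest); points place the 9 genes in their decile, filled where such a region was present, and their height has no meaning. The bars rise from 0.459% to 76.6%, and Tfap2a, Tfap2c and Zeb1 are open circles in deciles where most genes have a region.

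Width is the only measure of size in the list. The 3 promoter regions had a median of 1174 bp against 1294 bp for all promoter regions, and each lay below that median. The 8 regions beyond 10 kb spread more widely, from percentile 5.22 to 94.8 of their class, with a median of 968.5 bp against 937 bp. Those of Ets1 at -59923 bp and Tfap2b at -29842 bp were below the lower quartile of 783 bp, and those of Zeb2 at -71479 bp and Ets1 at -23661 bp above the upper quartile of 1122 bp. Of the 8, 5 lay upstream of the assigned start, where 44.9% of all regions beyond 10 kb lay. In all, 5 of the 12 regions held an annotated start of their gene, which leaves 7 at other sites, all beyond 10 kb. No share of all regions is given for this count. Repeated 31-mers were absent from 8 regions and made up 2.28 to 12.1% of the other 4, and the remaining sequence was unique at this length.

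**Figure D4:**
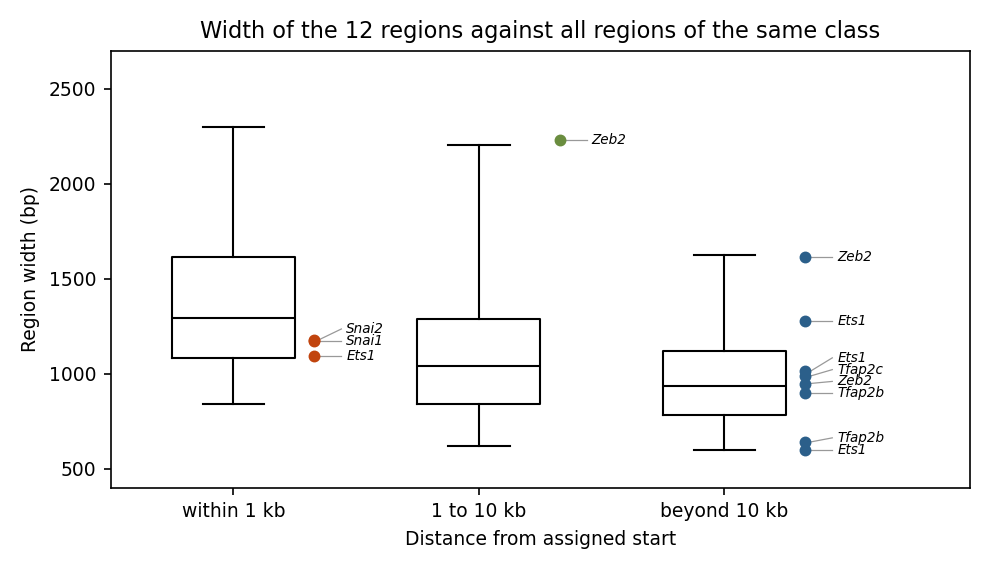
Width in bp of the 12 regions (points, labeled by gene) beside all regions of the same distance class (boxes, median and quartiles, whiskers from the 5th to the 95th percentile). The 3 promoter regions lie below the promoter median of 1294 bp, and the widest point is the 2232 bp region over the outermost Zeb2 start.

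Motifs of the factors that these genes encode were counted in the central 300 bp of their own regions. A TFAP2 palindrome was present in 3 of 12 regions (Tfap2c, Snai1 and Ets1 at -10127 bp), against 23.3% of all regions in the list, 32.2% of promoter regions and 12.3% of those beyond 10 kb. An E-box was present in 3 (Snai1, Snai2 and Ets1 at -59923 bp), against 16.9% of all regions, 17.7% of promoter regions and 15.5% of those beyond 10 kb. A SOX core was present in 3, all beyond 10 kb (Tfap2b at -29842 bp, Zeb2 at -71479 bp and Ets1 at -10127 bp), against 9.35% of all regions and 17.1% of those beyond 10 kb. No region held the ETS motif CCGGAAG or CAGGAAG, which 21.3% of all regions held, with 24.6% of promoter regions and 17.6% of those beyond 10 kb. The ETS motif was found in 3 of 12 regions when the central 600 bp were searched. No share of all regions is given for that wider window, so the shares above are no background for this count. With 12 regions from 6 genes, these counts are a description, and a match does not show binding.

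The motifs of the factors that the study is about were searched in the same way. The Isl1 motif was present in 2 of 12 regions, that of Tfap2b at 29486 bp and that of Ets1 at -10127 bp, against 3.96% of all regions and 6.82% of those beyond 10 kb. The GATA motif AGATAA was present in none of the 12, within 300 or 600 bp. In the central 300 bp it was present in 8.54% of all regions, 3.23% of promoter regions and 15.6% of those beyond 10 kb. The Ets1 region at -10127 bp held 3 kinds of motif, the most of the 12. No match to any of the 6 motifs was found in the 300 bp of the Ets1 promoter region, the Ets1 region at -23661 bp, the Zeb2 regions at -3421 and 42944 bp, or the region inside Tfap2a.

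**Figure D5:**
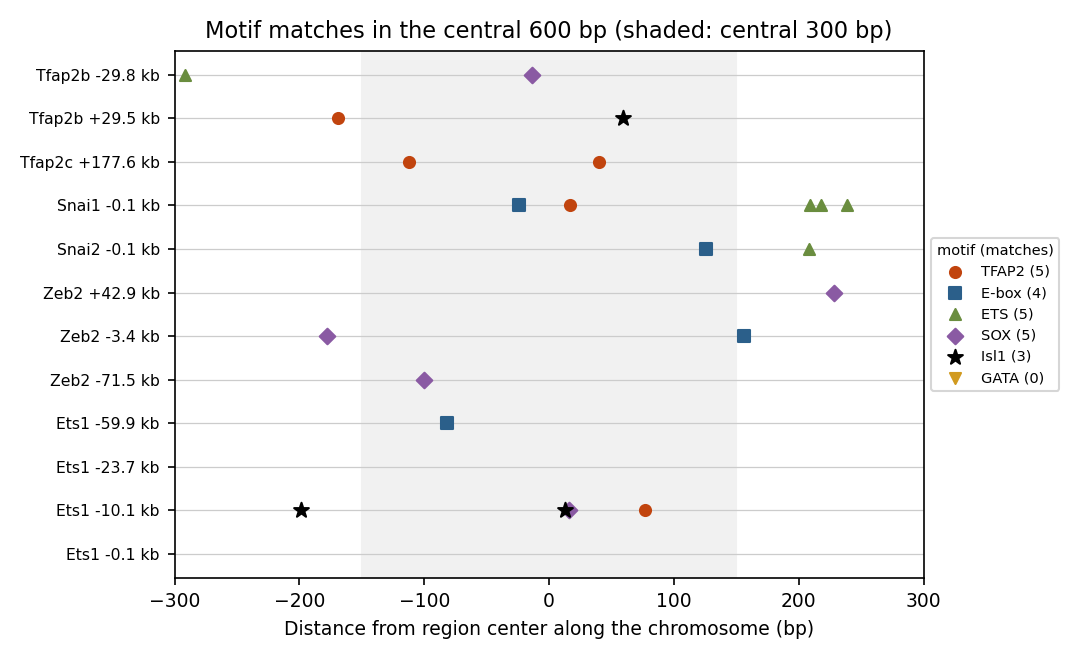
Position of motif matches in bp from the center of each of the 12 regions along the chromosome, by motif, with the central 300 bp shaded; regions are labeled by gene and by distance from the assigned start in kb. ETS matches lie outside the central 300 bp, GATA has 0 matches, and an Isl1 and a SOX match coincide at the Ets1 region 10 kb upstream.

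The factors were also set beside fixed lists of related genes, by the number of list members with an assigned region. Of 10 paralogs of the 9 genes, 5 had a region (50%), a share near the 49.3% of all coding genes. Among the paralogs with a region within 1 kb, Ets2 and Scrt2 had 1 each, 1351 and 1297 bp wide, in addition to Sox9, and Tfap2d and Fli1 had 2 regions each with none there, as Tfap2b did. Tfap2e, Snai3, Sox8, Erg and Scrt1 had no region. Of 14 other neural crest specifier genes 11 had a region (78.6%), and of 14 genes for crest receptors and derivatives 9 (64.3%), both above that share, with a region within 1 kb for 42.9% and 35.7% against 40.6% of all coding genes. None of these shares was tested. Mycn had 5 regions and Zic1 4, the bHLH factor Twist1 had 1 of 2210 bp over its start, and Foxd3, a classic premigratory crest factor, had only 1 at -196641 bp. The crest genes Pax3, Pax7 and Gbx2 had none, and neither had the receptors Ngfr, Ret and Pdgfra.

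Epithelial genes, many of them repressed by EMT factors, and genes of mesenchymal cells differed in these counts. Of 18 epithelial genes 6 had a region (33.3%) and 3 a region within 1 kb (16.7%), whereas of 12 mesenchymal genes 8 had one, and each of these 8 within 1 kb (66.7%). The shares over all coding genes, 49.3% with a region and 40.6% within 1 kb, lay between those of the lists. Cdh1, the E-cadherin gene repressed by Snail and Zeb factors, had no region, as had the claudins Cldn3, Cldn4, Cldn6 and Cldn7 and the epithelial regulators Grhl2, Grhl3, Ovol1 and Esrp2. The tight junction genes Ocln and Tjp1 and the splicing regulator Esrp1 each had a region within 1 kb, and Epcam, Ovol2 and Krt8 each had 1 farther away. Cdh2, the N-cadherin gene, had 4 regions with the widest at 2482 bp, Cdh11 had 8 with the widest at 3640 bp, and Vim had 1 of 2823 bp over its start, whereas Mmp14, Acta2, Tagln and Col1a1 had none. Starts of the epithelial genes were the richer in CpG, with a median of 6.2 per 100 bp against 4.6 for the mesenchymal genes. Neither difference was tested. Of 6 microRNA genes that act on Zeb mRNAs, only Mir205 had regions (3, none within 1 kb), and none of the miR-200 family genes had one. The shares above are for coding genes and none is given for microRNA genes, so this count has no background.

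Markers of the labeled tissue were counted in the same way. Of 10 genes of pharyngeal mesoderm and heart, 6 had a region and 5 a region within 1 kb, with 9 regions for Isl1, 5 for Mef2c, 4 each for Tbx20 and Fgf10, and 1 each for Hand2 and Gata4. Of all coding genes, 49.3% had a region and 40.6% had one within 1 kb. No marker count in this paragraph was tested against these shares. Tbx1, Nkx2-5, Fgf8 and Tnnt2 had none, so a missing entry was also found for genes that mark this tissue. Of 4 markers each, 2 had a region for neural crest (Ets1 and Foxd3, not Sox10 and Tfap2a), 3 for neural tube, 3 for endothelium, 2 for pharyngeal endoderm, 2 for surface ectoderm and 1 for blood. Ets1, Sox10 and Tfap2a are among the 9 genes, so the crest count repeats values given above and is no separate check. The list gives no level of accessibility, so the share of each cell type in the tissue was not estimated, and its part in the regions of the 9 genes was not tested.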

How the data were processed

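Chromatin of 9 dissected tissue samples was profiled by ATAC-Seq, and groups follow the genotypes given per the labels. By the methods of the study, the authors aligned the reads with bowtie2 (mm9), filtered for primary alignments in proper pairs (samtools), took out duplicates with Picard 1.136, called peaks with MACS14 at a fixed shift size and no fragment model, dropped those on the ENCODE blacklist, and kept regions that overlapped between replicates by 1 bp or more (bedtools 2.15). In the deposited list a region has a position and a signed distance from its TSS, in bp. How genes were assigned is described for ChIP-Seq peaks and not for these regions. Widths include the tag extension and rise with depth, which is unknown, and no offset for Tn5 insertion is stated. No mapping quality filter is stated. No column was left unmapped (0 columns).

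Positions were taken as 1-based and closed, and rows with the same position were counted once. The coding background came from the RefSeq table of GRCm38.p6, used for names and gene types only. Sequence and annotation were NCBIM37 with GENCODE, the build of the files, where 9 of the 9 genes were found, 3 under an older symbol. Percentiles are within the class of distance (1 kb and 10 kb limits). Repeats were 31-mers with a further copy on either strand. All 9 genes and their regions are named, with fixed lists of related genes and, for the gene with the most regions, up to 5 genes of like pattern. The members and lists were chosen with earlier results of these data known. Values of some list genes and some sequences are not reported here and remain in the counts. The motif search was tested on simulated sequences with planted motifs, and the percentile step on made-up values. Alternatives were the wider regions only, all rows, merged regions, GENCODE starts, other distance limits and other motif windows. Assignment to coding GENCODE starts was added after seeing the data. Python 3.11.15, numpy 2.4.6, pandas 2.3.3, scipy 1.17.1, pysam 0.24.0 and matplotlib 3.10.9 were used.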

Additional observations from a re-analysis of the deposited data

How the results depend on the processing

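No paired analysis was possible because the wild-type libraries enter as 1 common list whose values carry no replicate number, and for the same reason no library could be left out. Of the values recomputed under an alternative, 14 moved and 54 did not by the limits used (1.5 times for counts, 1 SD of width for medians, the binomial interval for the share). Merging changed nothing, since no regions overlapped. With regions narrower than the overall median left out, 5 regions of 4 genes remained. The median width beyond 10 kb was then 1447 bp, a value that a filter on width raises by itself. The share of regions beyond 10 kb went from 66.7% to 40%, which did not count as moved, and no share of all regions of like width is given. A TFAP2 palindrome was present in 1 of the 5 regions, a SOX core in 1 and an Isl1 motif in 0, with fewer regions searched. In the central 600 bp, ETS motifs were found in 3 regions and SOX cores in 5, with more sequence searched and no share of all regions given for that window. With the nearest GENCODE start of any gene, the 9 genes received 14 regions (5 genes with a region, 4 within 1 kb), with an ETS motif in 1 and a GATA motif in 1. With the nearest start of a coding gene, an alternative chosen after seeing the data, they received 25 regions (8 genes), of which Ets1 had 8 and Zeb2 10, with TFAP2 in 5, ETS in 1, SOX in 5 and GATA in 4. By this assignment 7 regions listed under the noncoding gene 1700019E08Rik, at -585176 to -1389788 bp, went to Zeb2, the region inside Tfap2a went to Tfap2a, and a region at 215933 bp went to Zeb1, while Sox10 still had none. Snai1 and Snai2 had 1 region each under each of these settings. Depth is unknown, so what depth limits could not be measured.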
